A study of Mus musculus with 24 samples.

Results

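The miRNAs encoded inside the mouse Hox gene clusters were examined on Agilent arrays, namely mmu-miR-10a, mmu-miR-10b, mmu-miR-196a and mmu-miR-196b. They were chosen by name: all 4 are on the array, among 566 mouse miRNAs, and the star forms, which come from the opposite arm of the precursor, were not counted as members. The study compared miRNA microarray platforms by hybridizing a pair of mouse RNA pools to each of them, and only the 4 Agilent arrays are analysed here, of 24 hybridization records in all. Reference 1 combined total RNA of testicle, ovary and 10 to 12 day embryo in equal amounts, and Reference 2 combined total RNA of liver, heart and lung; strain, sex and age beyond the embryo's days were not given in the labels. Both pools were made from purchased RNA that included the small RNA fraction, and 2 single-color hybridizations of each, all on 1 slide, were analysed. The replicates are therefore repeated hybridizations of the same pool. The p-values refer to technical spread between these arrays, which the test estimated largely from other miRNAs and not from the member alone. A pool also does not show which of its tissues contributed a signal, and fewer cells of a type and less of a miRNA per cell cannot be told apart.

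Hox genes encode transcription factors that give positional identity along the head-to-tail axis of the embryo, and they lie in clusters whose order follows their order of expression. The miR-10 and miR-196 genes sit between or within these genes and are transcribed in overlapping regional patterns. Mature miRNAs guide Argonaute proteins to messenger RNAs mainly through the seed near their 5′ end, and miR-196 is known to direct cleavage of the Hoxb8 transcript.

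The mature sequences are shown because each pair of paralogs differs by a single base, so that the array had to tell near-identical molecules apart. They are the 5p strands in RefSeq (GRCm38.p6), written 5′ to 3′, with the seed, bases 2 to 8, in capitals.
mmu-miR-10a: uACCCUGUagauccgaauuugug
mmu-miR-10b: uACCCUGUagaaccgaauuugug
mmu-miR-196a: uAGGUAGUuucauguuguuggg
mmu-miR-196b: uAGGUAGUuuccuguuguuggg

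The miR-10 paralogs share the seed ACCCUGU and 22 of 23 bases. Their only difference is U12A, with the base of miR-10a first and positions counted from the 5′ end. The miR-196 paralogs share the seed AGGUAGU and 21 of 22 bases, and differ by A12C, with the base of miR-196a first. In both families the differing base lies outside the seed. How far a probe for one paralog also bound the other was not tested.

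In the GRCm38.p6 annotation the 4 mature sequences come from 5 precursor genes in 4 Hox clusters. Mir10a lies on the plus strand at chr11:96317165-96317274, inside the annotated span of Hoxb3 and 992 bases from Hoxb4. Mir10b lies on the plus strand at chr2:74726070-74726137, inside the spans of both Hoxd3 and Hoxd4. The same miR-196a sequence is made from Mir196a-1 at chr11:96265164-96265265, 6064 bases from Hoxb9, and from Mir196a-2 at chr15:102973350-102973434, between Hoxc10 and Hoxc9, so the array signal cannot be assigned to either gene. Mir196b lies on the minus strand at chr6:52230081-52230165, between Hoxa9 and Hoxa10, with a gap of 1031 bases to Hoxa10. Mir196a-1 and Mir196b each fall within the span of a long noncoding RNA gene, Gm51876 and Gm52902, and Mir196a-2 overlapped no other annotated gene.

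Each array held 11540 miRNA spots, and no spot was saturated. Between 234 and 242 mouse miRNAs were well above background on the Reference 1 arrays and between 161 and 166 on the Reference 2 arrays, where a miRNA counted if over 50% of the spots of at least 1 of its probes carried the scanner software's flag. Most of the listed tissue markers followed the labels, but these lists were chosen with earlier results of these data known. The marker counts are therefore no independent check of the labels. In limma over all 566 mouse miRNAs, 29.9% passed as higher and 28.3% as lower in Reference 1. Higher in Reference 1 were 5 of 6 testis miRNAs, 3 of 3 embryo mesenchyme miRNAs and 2 of 2 neural miRNAs. Lower were 5 of 5 listed heart and skeletal muscle miRNAs, the liver miRNA miR-122 and 5 of 5 blood miRNAs. Reference 2 held heart and liver, whereas neither skeletal muscle nor blood is named among the tissues of either pool. The muscle miRNA miR-206, which was not on the muscle list, went the other way, higher in Reference 1 by 2.24 (SE 0.0391). The summed total signal of the mesenchyme list was 3840 and 3927 in Reference 1 and 984 and 964 in Reference 2, and that of the neural list 155 and 165 in Reference 1 against values below 0 in Reference 2, where miR-9 and miR-124 were not detected. The testis list summed to 2084 and 2241 in Reference 1 and 177 and 194 in Reference 2. The gonadal miRNA miR-202 is on the array under its arm names: miR-202-3p had a normalized log2 signal of 6.59 and 6.60 in Reference 1 and 5.98 and 5.90 in Reference 2, where it was not well above background, and miR-202-5p was at background throughout. The part of any of these tissues in the differences below was not tested.

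The Hox cluster miRNAs did not move as a block. Of the 4, mmu-miR-10b, mmu-miR-196a and mmu-miR-196b were higher in Reference 1, and mmu-miR-10a was lower, each past an adjusted p of 0.05 in limma over all mouse miRNAs. This count has to be read against the array as a whole, on which 329 of 566 miRNAs (58.1%) passed the same test, 169 of them (29.9%) higher and 160 (28.3%) lower in Reference 1. The median difference was 0.23 for the 4 members and -0.01 for all 566, as Reference 1 minus Reference 2 on the log2 scale. The members ran from -1.07 to 3.39, against -3.14 to 3.39 for all mouse miRNAs, and on this scale mmu-miR-10b had the largest positive difference on the array.

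**Figure D1:**
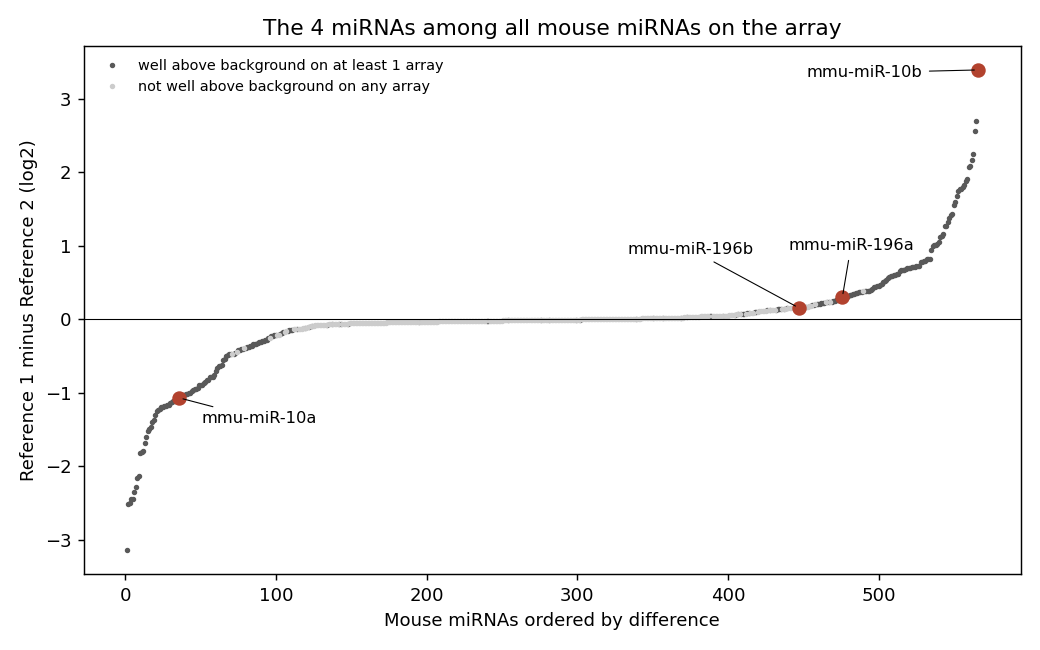
All 566 mouse miRNAs ordered along the x axis by the difference between references, with the difference (Reference 1 minus Reference 2, log2) on the y axis; dark points passed the background flag on 1 or more arrays and pale points on none. The 4 red points are the Hox cluster miRNAs, with mmu-miR-10b at the top of the order, mmu-miR-10a among the negative differences and both miR-196 miRNAs a little above 0.

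mmu-miR-10b had a normalized log2 signal of 9.69 and 9.73 on the Reference 1 arrays and 6.35 and 6.29 on the Reference 2 arrays. The groups lay far apart, and the SD between arrays was 0.0248 in Reference 1 and 0.0385 in Reference 2. The difference was 3.39 (SE 0.0463, 95% interval 3.30 to 3.49, adjusted p = 2.96e-30, limma with Benjamini-Hochberg adjustment), a 10.5-fold higher signal in Reference 1 and rank 1 of 566. Before normalization the median over its 20 spots was 1012 and 1042 in Reference 1 and 72.3 and 70.5 in Reference 2. The next miRNA in the order, mmu-miR-410, differed by 2.69 (SE 0.0418), but it was well above background on neither Reference 2 array. Background therefore limits its difference, which the standard errors do not cover, and the true gap between ranks 1 and 2 is not resolved. The rank holds for signals without background subtraction. By the total gene signal mmu-miR-10b was first among the 164 miRNAs detected on all arrays. That set leaves out miRNAs not detected in Reference 2, such as mmu-miR-124 and mmu-miR-743a, so mmu-miR-10b was not ranked against them there. With the background-subtracted processed signal it ranked 37 of 317 scaled to detected miRNAs and 46 of 318 scaled to all miRNAs. Of the 36 and 45 miRNAs ahead of it there, 34 and 41 were set to the floor of 1 unit on both Reference 2 arrays, so that the floor fixed their size.

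The Reference 2 signal of mmu-miR-10b was low but not at background. All 20 spots were well above background on both Reference 1 arrays, and 18 and 13 of 20 were on the Reference 2 arrays. Under the study's stricter rule, by which every spot must reach a threshold set 3 trimmed SD above the trimmed mean of negative control spots (48.7 to 54.3 units here), mmu-miR-10b was present on both Reference 1 arrays and on Reference 2 replicate 1, but not on Reference 2 replicate 2, where 17 of 20 spots passed. The total gene signal, which the scanner software computes after subtracting background, was 1326 and 1350 in Reference 1 and 36.0 and 33.2 in Reference 2. On that scale the ratio of means was 38.7, against the 10.5-fold of the signals without background subtraction. The near-identical mmu-miR-10a had a mean total gene signal of 295 in Reference 2. Whether it added to the mmu-miR-10b signal there by binding the same probes was not tested, and both folds carry this limit.

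mmu-miR-10a, its paralog with the same seed, ran the other way. Its normalized log2 signal was 7.11 and 7.03 in Reference 1 and 8.18 and 8.10 in Reference 2. Both Reference 1 arrays lay below both Reference 2 arrays, by far more than the spread within either reference. The difference was -1.07 (SE 0.0466, 95% interval -1.17 to -0.97, adjusted p = 1.36e-18, limma), a 2.1-fold lower signal in Reference 1. All 20 spots were well above background and passed the study's present rule on each of the 4 arrays. Spot medians before normalization were 164 and 160 in Reference 1 and 269 and 262 in Reference 2, and the total gene signal was 157 and 156 in Reference 1 and 301 and 289 in Reference 2. In Reference 1 mmu-miR-10b had a mean total gene signal of 1338. Whether it added to the mmu-miR-10a signal there by binding the same probes was not tested, and the 2.1-fold carries this limit. By its difference mmu-miR-10a ranked 36 from the lowest of the 566. Its neighbors in that order, mmu-miR-200c at -1.07 (SE 0.0419) and mmu-miR-150 at -1.08 (SE 0.0313), were within 1 standard error of it, so its exact place is not resolved.

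**Figure D2:**
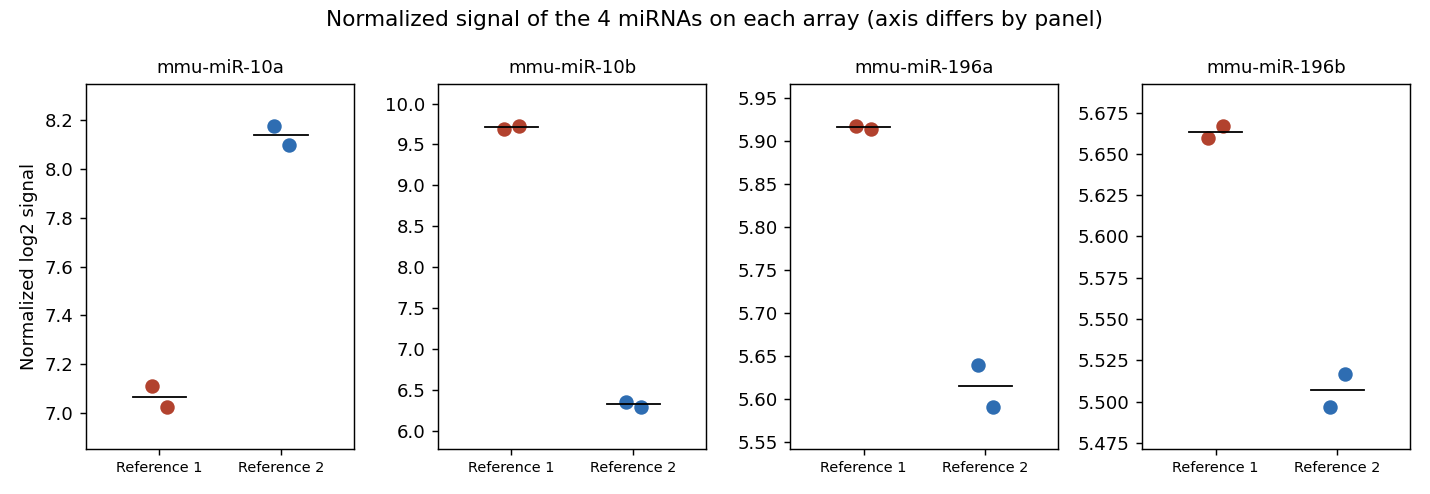
Normalized log2 signal (y axis, a separate range in each panel) of the 4 Hox cluster miRNAs on each array, Reference 1 in red and Reference 2 in blue, with 1 point per array and a line at the mean of 2 arrays. In no panel do the references overlap, and mmu-miR-10a alone has its higher values, 8.18 and 8.10, in Reference 2.

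The opposite directions of the miR-10 paralogs can be put into 1 number, the difference between them within an array, compared between references. It was 2.58 and 2.70 in Reference 1 and -1.83 and -1.81 in Reference 2, so that mmu-miR-10b minus mmu-miR-10a changed sign between the pools. The change was 4.46 (SE 0.0604, n = 2 arrays each). Since different probes need not bind equally well, this shows unequal change between references and not which paralog was the more abundant in a pool. An exact permutation test of 2 arrays against 2 cannot go below p = 0.333, two-sided, and gave that value for this change and for each of the 4 members taken singly.

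mmu-miR-196a was seen in Reference 1 only as a weak signal. Its normalized log2 signal was 5.92 and 5.91 in Reference 1 and 5.64 and 5.59 in Reference 2. The groups did not overlap, although the gap was small on this scale. Before normalization the median over its 20 spots was 71.0 and 67.5 in Reference 1 and 42.3 and 44.0 in Reference 2. Without normalization between arrays the difference was 0.68. On the Reference 1 arrays 15 of 20 spots were well above background, and on the Reference 2 arrays none was, which leaves only a bound for Reference 2. The measured difference was 0.30 (SE 0.0300, 95% interval 0.24 to 0.36, adjusted p = 4.01e-10, limma). No fold is given for it, because the lowest log2 signal of any probe well above background was 5.93 and 6.05 on the Reference 2 arrays, and the mean in Reference 1 did not exceed these. Total gene signal was 32.8 and 34.1 in Reference 1 and below 0, at -2.64 and -4.41, in Reference 2, where the scanner software did not call it detected.

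mmu-miR-196b gave the same order at a lower signal. Its normalized log2 signal was 5.66 and 5.67 in Reference 1 and 5.50 and 5.52 in Reference 2. Again the groups did not overlap. In Reference 1, 9 and 10 of 20 spots were well above background, and in Reference 2 none was. The measured difference was 0.16 (SE 0.0265, 95% interval 0.10 to 0.21, adjusted p = 6.34e-06, limma), and for the same reason no fold is given. Total gene signal was 11.5 and 12.2 in Reference 1 and -0.873 and -1.90 in Reference 2. Neither miR-196 miRNA met the study's present rule on any array, because some of their spots stayed below the threshold even in Reference 1.

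The 2 families therefore differed in detection. Both miR-10 miRNAs were well above background on all 4 arrays, as were 25.4% of the 566 miRNAs. Both miR-196 miRNAs were well above background on the Reference 1 arrays and on neither Reference 2 array, a pattern shared by 87 of 566 (15.4%). Within arrays mmu-miR-196a minus mmu-miR-196b was 0.26 and 0.25 in Reference 1 and 0.14 and 0.07 in Reference 2, a change of 0.14 (SE 0.0346), and with Reference 2 at background this value cannot be read as a difference between the paralogs. In the order of differences mmu-miR-196a, at rank 91, lay between mmu-miR-433 at 0.30 and mmu-let-7g at 0.28. mmu-miR-196b, at rank 120, lay between mmu-miR-542-5p and mmu-miR-299, both at 0.16. None of these neighbors differed from the member beside it by more than 1 standard error.

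**Figure D3:**
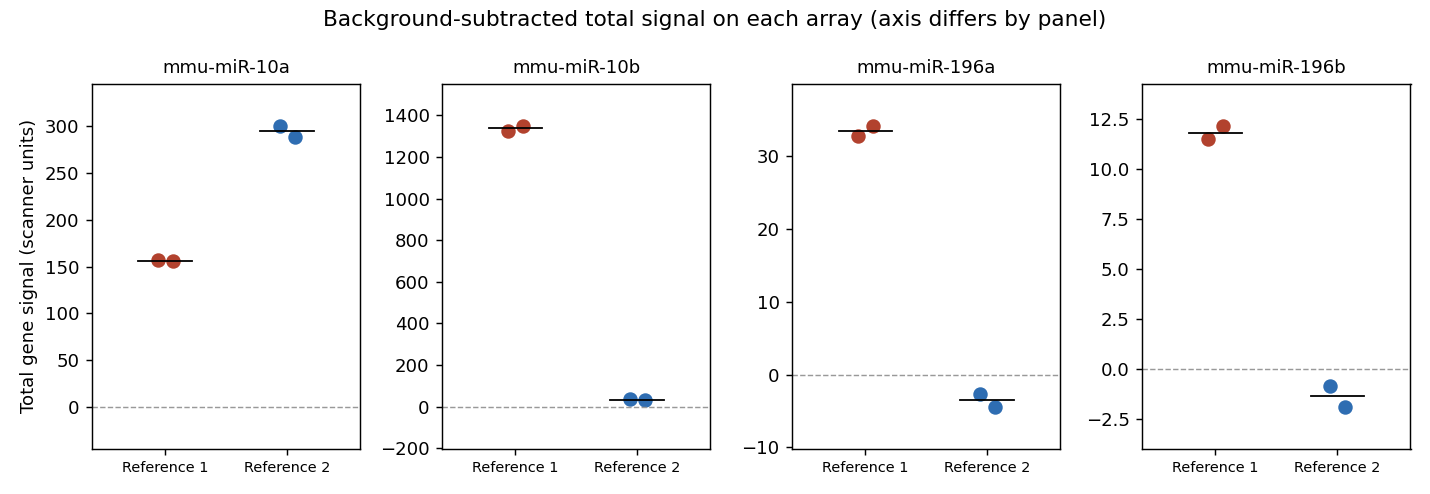
Total gene signal after background subtraction (scanner units, y axis, a separate range in each panel) on each array, Reference 1 in red and Reference 2 in blue, with a line at the mean of 2 arrays and a dashed line at 0. mmu-miR-10b falls to 36.0 and 33.2 in Reference 2 but stays above 0, whereas both miR-196 miRNAs lie below 0 there.

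Each miRNA is measured by several probes, and these did not see the same size of change. For mmu-miR-10b the brighter probe had a median spot signal of 1537 and 1530 in Reference 1 and 84.8 on both Reference 2 arrays. The dimmer probe had 609 and 610 in Reference 1 and 58.0 and 56.5 in Reference 2. Normalized, the difference was 3.94 (SE 0.0400) for the brighter and 2.96 (SE 0.0397) for the dimmer probe, and the miRNA's 3.39, a median over both probes' spots, fell between them. With the background subtracted the order of the probes turned round: the brighter had 1513 and 1527 in Reference 1 and 40.6 and 40.4 in Reference 2, a ratio of 37.5, and the dimmer had 567 and 568 in Reference 1 and 13.6 and 9.85 in Reference 2, a ratio of 48.4. The dimmer probe was well above background on 8 and 3 of 10 spots in Reference 2, so its ratio rests on a signal close to background.

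The probes of mmu-miR-10a were alike. The brighter gave 230 and 224 in Reference 1 and 387 and 379 in Reference 2. The dimmer gave 107 and 102 in Reference 1 and 160 and 159 in Reference 2. Normalized differences were -1.09 (SE 0.0440) and -1.03 (SE 0.0392), and with the background subtracted Reference 2 exceeded Reference 1 by 1.85-fold on the brighter and 1.87-fold on the dimmer probe.

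For miR-196 the weakest probes carried no measurable difference. The brightest of 4 mmu-miR-196a probes had a median of 90.0 and 89.0 in Reference 1 and 42.0 and 45.0 in Reference 2, and differed by 0.43 (SE 0.0329, adjusted p = 6.05e-10, limma over 1672 mouse probes), with Reference 1 at least 1.14-fold above the lowest probe signal well above background in Reference 2. The next 2 probes differed by 0.30 and 0.35. The dimmest had 45.0 and 43.0 in Reference 1 and 43.0 on both Reference 2 arrays, with a difference of 0.07 that did not pass (adjusted p = 0.120). Of the probes of mmu-miR-196b, the brighter had 60.8 and 59.0 in Reference 1 and 44.5 and 45.0 in Reference 2, a difference of 0.19 (SE 0.0333, adjusted p = 8.38e-05), and the dimmer had 46.8 and 42.5 in Reference 1 and 43.0 and 44.0 in Reference 2, a difference of 0.05 (adjusted p = 0.245). Over the spots of a probe on 1 array, the coefficient of variation was 2.01 to 7.59% (median 3.89%). This is the spread within an array and not between hybridizations, so it is no measure for the gap between references.

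**Figure D4:**
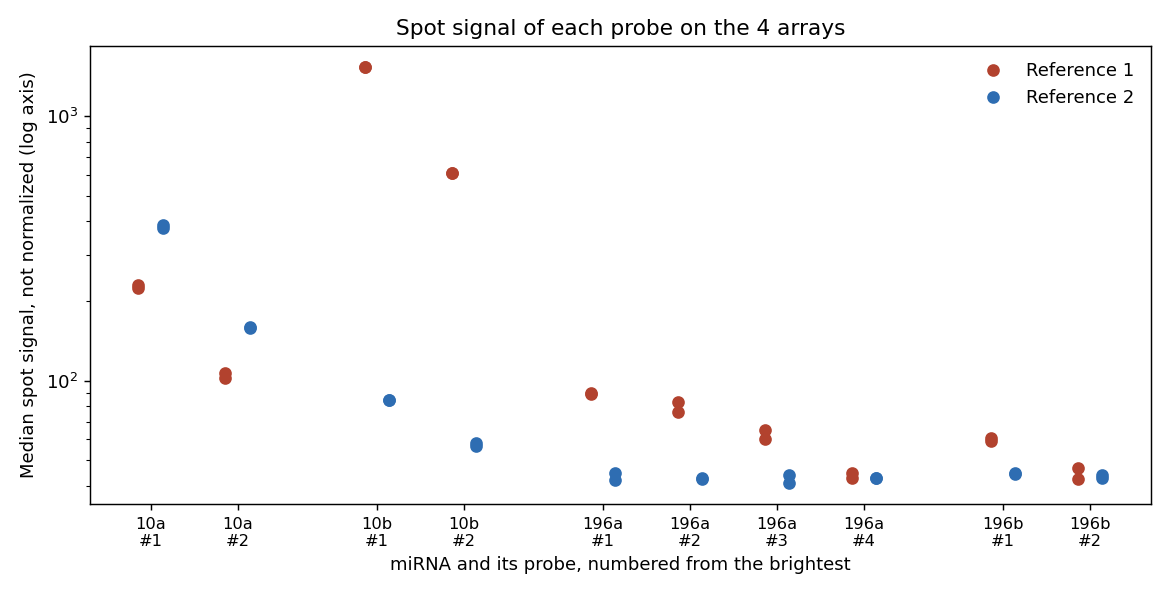
Median spot signal without normalization or background subtraction (scanner units, log axis) for the 10 probes of the Hox cluster miRNAs, numbered from the brightest within each miRNA, with 1 point per array, Reference 1 in red and Reference 2 in blue. The mmu-miR-10b probes separate most, the mmu-miR-10a probes run the other way, and the dimmest miR-196 probes sit at 42.5 to 46.8 in Reference 1 and 43.0 to 44.0 in Reference 2.

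The direction of each member held under every scaling tried. Over 8 ways of scaling the arrays, mmu-miR-10b stayed between 3.24 and 4.84, mmu-miR-10a between -2.31 and -0.69, mmu-miR-196a between 0.20 and 4.53 and mmu-miR-196b between 0.13 and 3.06, and all passed the test each time. The largest miR-196 values came from the background-subtracted processed signal, where Reference 2 was set to a floor of 1 unit, so that the floor fixed their size. Those scalings are therefore only a weak check of the miR-196 direction. Without any normalization between arrays mmu-miR-196a differed by 0.68 and mmu-miR-196b by 0.27, both more than the main values.

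**Figure D5:**
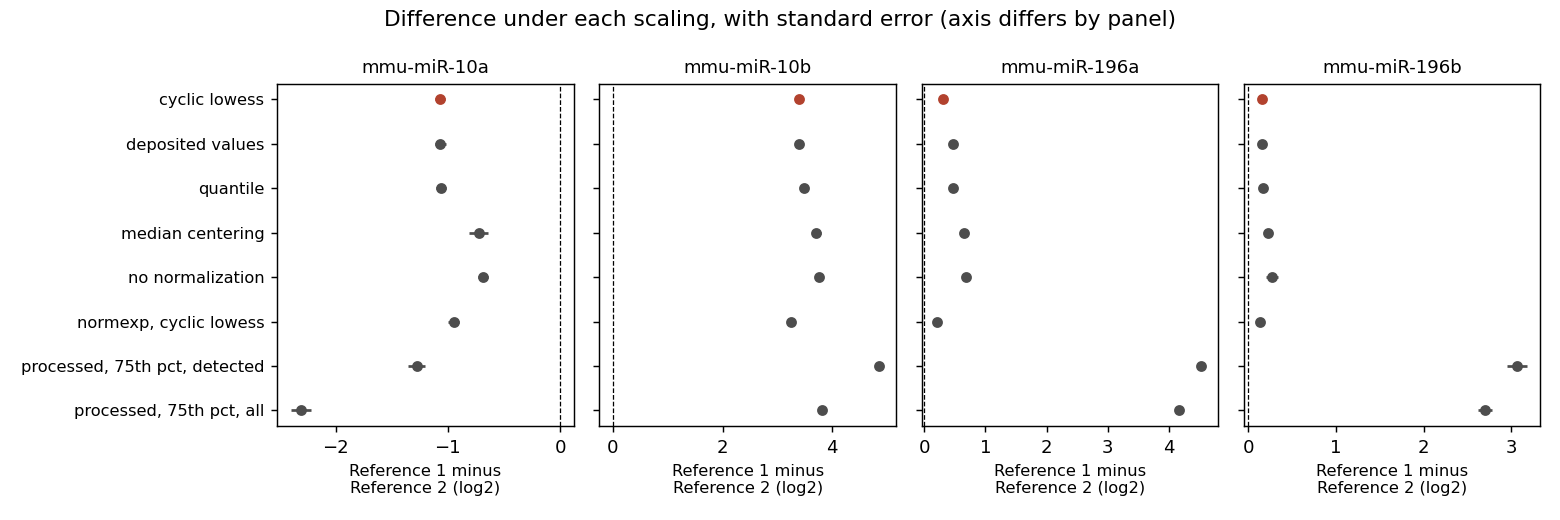
Difference (Reference 1 minus Reference 2, log2, x axis with a separate range in each panel) of each Hox cluster miRNA under 8 scalings of the arrays (rows), with bars of 1 standard error and the main setting, cyclic lowess, in red. No point crosses the dashed line at 0, and the processed-signal rows stand apart for both miR-196 miRNAs, reaching 4.53 and 3.06.

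Other products of the same loci gave almost nothing. The precursors of the miR-10 paralogs are shown with the 5p arm and the 3p arm, the source of the star forms, in capitals.
Mir10a: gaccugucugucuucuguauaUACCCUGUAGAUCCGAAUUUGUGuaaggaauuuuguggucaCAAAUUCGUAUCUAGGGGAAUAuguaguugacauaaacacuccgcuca
Mir10b: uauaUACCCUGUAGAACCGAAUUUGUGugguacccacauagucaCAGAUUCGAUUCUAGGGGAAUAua

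The array measured 5 further miRNAs of the Hox clusters, namely miR-10a*, miR-10b* and miR-196a* from the arms opposite the members, and miR-615-3p and miR-615-5p from a precursor in the Hoxc cluster. None of the 5 was well above background on any array. By the test 1 was higher in Reference 1, 2 were lower and 2 did not pass, with differences from -0.06 to 0.15. Over all 566 miRNAs 29.9% were higher and 28.3% lower, so these calls do not set the 5 apart. They also show that the test called miRNAs that stayed at background. The 1 of the 5 that was higher was miR-10b* (difference 0.15, SE 0.0205, adjusted p = 2.73e-07, limma), at 5.43 and 5.40 in Reference 1 and 5.29 and 5.24 in Reference 2. It passed in 5 of 6 scalings, but not without normalization between arrays (difference 0.11, adjusted p = 0.336, limma). Its total gene signal was below 0 on all 4 arrays, so no fold is given for it. The star arm of Mir10b thus stayed at background on the arrays on which mmu-miR-10b had a total gene signal of 1326 and 1350 units.

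The miR-99 and miR-100 miRNAs belong to the same ancient family as miR-10 but lie outside the Hox clusters and carry another seed, ACCCGUA. mmu-miR-100, shown with its longest run in common with mmu-miR-10a in capitals, shares 11 bases with it at positions 6 to 16.
mmu-miR-100: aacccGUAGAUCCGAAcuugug

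All 3 of these relatives were well above background on every array. mmu-miR-99a, at 8.30 and 8.22 in Reference 1 and 8.49 and 8.43 in Reference 2, was lower by the test (difference -0.20, SE 0.0480, adjusted p = 6.07e-04), although its sign turned in 1 of 8 scalings. mmu-miR-99b had 6.07 and 6.04 in Reference 1 and 6.35 and 6.41 in Reference 2 (difference -0.32, SE 0.0350, adjusted p = 1.93e-09), and its sign turned in 3 of 8 scalings. mmu-miR-100 differed by 0.02 (SE 0.0417, adjusted p = 0.783), which did not pass, but it passed in 6 of 8 scalings and ran from -0.63 to 0.51 over them, above 0 in 7. The direction of change is therefore not settled for these relatives.

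Few other miRNAs carried the members' seeds. A RefSeq entry was found for 366 of the mouse names on the array without a star. None of these shared bases 2 to 8 with a member outside its own pair. Bases 2 to 7 of miR-10 occurred at positions 3 to 8 of mmu-miR-504, which stayed at background on the 4 arrays, and bases 2 to 7 of miR-196 occurred at positions 3 to 8 of 9 let-7 family miRNAs, shown here for let-7a with those bases in capitals.
mmu-let-7a: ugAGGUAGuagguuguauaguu

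The let-7 miRNAs repress genes of growth and developmental timing and are among the most abundant miRNAs of adult tissue. Of the 9, 7 were higher and 2 lower in Reference 1, from -0.19 in mmu-miR-98 to 0.82 in mmu-let-7c. Over all 566 miRNAs 29.9% were higher and 28.3% lower by the same test. However, the sign of 8 of the 9, all except the lower mmu-let-7i, turned in at least 1 of the 8 scalings. Both miR-196 miRNAs were higher in Reference 1 in each of these scalings. With the processed signal, however, their Reference 2 values were set to the floor, so those scalings do not check their direction as they do that of let-7.

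Likeness of pattern was measured as the Euclidean distance over the 4 arrays between log2 profiles, each centered on its own mean, among the 255 other miRNAs that cleared background on some array. The nearest to mmu-miR-10a were miR-29c* (distance 0.0818), miR-101a and miR-185, with differences of -1.10, -1.01 and -1.11. The nearest to mmu-miR-10b were miR-410, miR-322 and miR-206, but at distances of 0.698 to 1.15, since no other miRNA reached its difference on this scale without background subtraction. The nearest to mmu-miR-196a were miR-541, miR-433 and miR-128, at distances of 0.0229 to 0.0289, and to mmu-miR-196b miR-16, miR-299 and miR-542-5p, at 0.0159 to 0.0217. With differences this small, closeness to a miR-196 miRNA says only that a miRNA varied little over these 4 arrays.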

How the data were processed

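Per the labels and the study's methods, RNA of each pool was dephosphorylated, labelled with Cy3 and hybridized to Agilent mouse miRNA arrays on 1 slide, and the intensity of every spot was extracted by the authors with Agilent Feature Extraction 9.5.3.1. The methods state that more arrays were hybridized than analysed, and that 1 of them had a poor signal and failed quality control. They also state that the arrays analysed were drawn at random for each pool. The deposited intensity columns hold median, mean, local background, processed (background-subtracted) and total gene signals, and the deposited flags for spots well above background, saturated or outlying are other, coded values. The authors also deposited a table of normalized log2 values, used as an alternative; it correlated at r of at least 0.999 with the values recomputed here over 560 shared miRNAs.

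As in the methods, median signals without background subtraction were log2 transformed, normalized by cyclic lowess over all miRNA spots and summarized per miRNA by the median of its spots. Differences were tested with limma 3.58.1 in R 4.3.3 (eBayes with an intensity trend) over 566 mouse miRNAs, with Benjamini-Hochberg adjustment and a threshold of 0.05; the same fit was run on 1672 probes. The procedure was tested on simulated data for this comparison (566 miRNAs): of 67, 67 and 66 miRNAs changed by 0.5, 1 and 2 on the log2 scale all were recovered, with 4 false calls. The smallest of these changes exceeded both miR-196 differences, so recovery of changes of that size was not tested. Changes and noise were put on normalized miRNA values, so normalization and background were not simulated. The precision is limited by the number of arrays. Cyclic lowess shifts a spot by an amount that depends on its mean signal over a pair of arrays, so that signals near background are not on a linear scale.

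The miRNAs named are the 4 members, the listed products of the Hox loci and relatives of miR-10, miRNAs found by seed match, the 3 nearest in pattern to each member, and the neighbors in the order of differences. Members, lists and markers were chosen with earlier results of these data known. Alternatives covered the scaling, the background correction, the spot summary, the filter, the fit, a replicate block and leaving out each array; fits of single probes and of the total gene signal were added after the data were seen. Sequences and coordinates are from RefSeq (GRCm38.p6). The LC Sciences, Exiqon and NCode arrays were not used here, because their probe numbers could not be paired with miRNA names from the tables at hand.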

Additional observations from a re-analysis of the deposited data

How the results depend on the processing

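Each member kept its direction in every alternative run for it (22 each for mmu-miR-10a and mmu-miR-10b, 21 for mmu-miR-196a and 19 for mmu-miR-196b; the total gene signal and the processed single-probe fits gave no miR-196 value). Each passed the test except in fits of single dim probes, chosen after the data were seen: the dimmest mmu-miR-196a probe alone gave 0.0652 (adjusted p = 0.120) and the dimmer mmu-miR-196b probe alone 0.0495 (adjusted p = 0.245). The miR-196 differences rest on signals near background, and their size is not fixed by these arrays.

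Leaving out 1 array at a time gave -1.11 to -1.03 for mmu-miR-10a, 3.37 to 3.42 for mmu-miR-10b, 0.28 to 0.32 for mmu-miR-196a and 0.15 to 0.17 for mmu-miR-196b, 283 to 322 miRNAs called against 329, and 4.40 to 4.52 and 0.11 to 0.18 for the within-array changes of the miR-10 and miR-196 pairs; a lone array was assumed to vary like the others. Replicate numbers only name the arrays (deviations of same-numbered arrays correlated at r = 0.06). With a replicate block 328 miRNAs were called, with the differences of the members and their calls as before.

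Without outlying spots mmu-miR-10b differed by 2.94, near its dimmer probe's 2.96, and mmu-miR-196b by 0.07 (adjusted p = 0.0339). Deposited values gave 0.47 for mmu-miR-196a. The number of miRNAs called was 498 with arrays centered on their medians and 148 of 164 tested with the total gene signal. The share of calls that were higher in Reference 1 was 51.4% in the main setting, 35.7% with centering, 69.2% without normalization and 65.1% with the processed signal scaled to detected miRNAs. The processed signal scaled to the detected or to all miRNAs moved the median of all miRNAs to 0.48 and -0.37, and the total gene signal to 0.21; relative to the first 2 medians mmu-miR-10b stood at 4.36 and 4.18 and mmu-miR-10a at -1.76 and -1.94.

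The within-array change of the miR-10 pair (4.46) was 4.55 with quantile normalization, 6.12 with either processed signal, 4.19 with normexp, 5.02 with the brightest probe, 4.03 without outlying spots and 6.19 with the total gene signal. That of the miR-196 pair (0.14) was 0.41 with centering and without normalization, 0.29 with quantile normalization, 1.47 with either processed signal, 0.0717 with normexp, 0.31 with deposited values, 0.25 with the brightest probe and 0.23 without outlying spots. In the processed signal the floor enters only the miR-196 pair, whose Reference 2 values lie at it; the cause of the other shifts was not tested.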
